A study of Homo sapiens with 4 samples.

Results

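The KMT2A-fusion leukaemia programme is examined here through 10 genes, chosen by name as the HOXA-MEIS1-PBX3 axis, further transcription factors of the programme and the cofactors of the fusion protein. All 10 had a row among the 11597 genes of the authors' deposited table. The rule uses names and no measured value, but it was set with earlier results of these data known. The cells were MOLM13, a human acute myeloid leukaemia line that carries a fusion of KMT2A (MLL) with MLLT3 (AF9) and an internal tandem duplication of FLT3. One group (2 libraries, genotype BTG2 OE) received a lentivirus with the cDNA of BTG2, an adaptor protein that recruits the CCR4-NOT deadenylase to mRNA, and the other (2 libraries, labelled WT) received the empty vector. Both groups were thus infected, with what the labels' protocols give as one EF1α-driven vector that also codes for puromycin resistance and ZsGreen, and both were collected at day 3 after infection. The labels mention neither selection nor sorting of infected cells, so the share of cells that carried the vector is unknown. The stated purpose was to test the role of BTG2 in mRNA stability.

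The KMT2A fusion joins the DNA-binding amino-terminal part of a histone methyltransferase to a partner that recruits transcription elongation factors. Menin (MEN1) and LEDGF (PSIP1) hold the fusion on chromatin, and DOT1L, which methylates histone H3 on lysine 79, is brought in through the partner. The posterior HOXA genes and MEIS1 are then kept active, and HOXA9 binds DNA together with the homeodomain cofactors MEIS1 and PBX3 to block myeloid differentiation.

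Only values pooled by group comparison were analysed, so each error is the authors' standard error (SE), and whether both libraries of a group moved alike is not known. Mean counts are the authors' mean normalized counts pooled over the 4 libraries. Log2 fold changes are positive where BTG2 libraries were higher, and a gene is called changed where the authors' adjusted p is under 0.05. BTG2 itself had a log2 fold change of 5.01 (SE 0.09) in the authors' deposited table, with reads of the cDNA and of the cell's own gene counted as one. Of 14 markers of monocytic leukaemia 12 had a row, among them CD33, SPI1, LYZ and CSF1R, whereas 0 of 5 T cell, 0 of 5 erythroid and 0 of 3 fibroblast markers had one. Of 5 called monocytic markers 4 (MPO, LYZ, FCGR1A and CEBPA) were lower and 1 (FLT3) higher in the authors' deposited table, with a list median of -0.11, and their part in the results on the programme was not tested. CEBPA, FLT3 and SPI1 also belong to the list of fusion targets used later. Among other cell types' markers KRT8, KRT18 and the B cell factor PAX5 had rows, the last with a fitted log2 value of -9.28 (SE 1.47) at a mean count of 53.1 in the authors' deposited table, too large to be read as a fold.

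The results turn on HOXA9, PBX3 and SATB1, which rose, and on HOXA10, the neighbour of HOXA9, which did not pass the test. Their promoters are shown because the CXXC domain of KMT2A, kept in the fusion, binds unmethylated CpG. Each sequence runs from 250 bases before to 50 after the start site that lies nearest the 5′ end of the gene's longest coding transcript, from RefSeq on GRCh38.p14, with every CG in capitals.
HOXA9 promoter, chr7:27165488-27165787, minus strand: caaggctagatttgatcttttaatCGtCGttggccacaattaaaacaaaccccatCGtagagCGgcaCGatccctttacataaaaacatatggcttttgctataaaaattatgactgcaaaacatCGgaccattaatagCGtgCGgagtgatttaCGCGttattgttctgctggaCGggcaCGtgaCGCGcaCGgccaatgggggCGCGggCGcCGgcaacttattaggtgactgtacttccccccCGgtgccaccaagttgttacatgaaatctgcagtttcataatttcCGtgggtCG
HOXA10 promoter, chr7:27174271-27174570, minus strand: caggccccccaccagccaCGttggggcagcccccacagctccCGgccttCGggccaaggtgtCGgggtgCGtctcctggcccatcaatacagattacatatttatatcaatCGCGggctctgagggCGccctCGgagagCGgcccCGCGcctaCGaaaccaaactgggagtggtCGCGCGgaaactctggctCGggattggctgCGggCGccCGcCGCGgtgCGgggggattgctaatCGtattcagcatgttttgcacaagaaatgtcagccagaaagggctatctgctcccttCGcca
PBX3 promoter, chr9:125747933-125748232, plus strand: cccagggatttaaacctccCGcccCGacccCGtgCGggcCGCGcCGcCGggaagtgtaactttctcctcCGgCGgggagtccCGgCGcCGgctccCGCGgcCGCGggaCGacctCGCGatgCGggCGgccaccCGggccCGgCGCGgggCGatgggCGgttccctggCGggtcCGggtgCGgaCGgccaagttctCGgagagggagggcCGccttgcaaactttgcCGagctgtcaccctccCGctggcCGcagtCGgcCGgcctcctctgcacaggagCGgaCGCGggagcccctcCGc
SATB1 promoter, chr3:18425290-18425589, minus strand: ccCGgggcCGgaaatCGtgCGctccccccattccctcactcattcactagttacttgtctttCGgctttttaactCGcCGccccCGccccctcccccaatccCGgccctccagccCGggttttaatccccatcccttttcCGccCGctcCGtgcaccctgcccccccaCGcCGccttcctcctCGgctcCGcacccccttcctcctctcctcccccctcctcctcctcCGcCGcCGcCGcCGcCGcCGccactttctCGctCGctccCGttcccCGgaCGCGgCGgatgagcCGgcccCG
The stretch before PBX3 held 43 CG, that of SATB1 33, that of HOXA10 25 and that of HOXA9 22. Of all 35116 RefSeq promoters of this length, 4.98% held at least as many as PBX3, 17.2% as many as SATB1, 32.0% as many as HOXA10 and 37.7% as many as HOXA9. The 9 programme genes with an entry ranged from 18 (MEIS1) to 43, with a median of 31 against 14 over all promoters. Among the genes that rose the CG count ran from 22 (HOXA9) to 43 (PBX3), and among the rest from 18 (MEIS1) to 33 (PSIP1). Any link of CG count to the fold changes was not tested.

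In cells with BTG2, 3 transcription factor genes of the programme were higher by a modest amount, and the cofactor genes did not pass the test. HOXA9 was 1.45-fold, PBX3 1.37-fold and SATB1 1.27-fold the level of the empty vector cells in the authors' deposited table. MEIS1, HOXA7, HOXA10 and MEF2C did not pass, nor did MEN1, DOT1L and PSIP1. With the authors' statistic rescaled to its own spread SATB1 alone was called, at an adjusted p of 0.0473, and against a minimum change of 0.2 on the log2 scale none was. Thus 3 of 10 genes rose and 0 fell by the authors' adjusted p, or 3 and 1 at an unadjusted p under 0.05. That unadjusted limit was met by 2036 of all 11597 genes, 918 higher and 1118 lower. Over all listed genes 8.11% were called, 3.64% higher and 4.47% lower. These are 422 genes higher and 518 lower, or 500 and 433 after recentring on the median abundant gene, so that balance turns with the scaling. Among genes whose mean count was 151 (the median) or more, where 9 of the 10 lie, the called share was 13.6%. Of these 5799 abundant genes, 1549 had an unadjusted p under 0.05. The median log2 fold change of the 10 was 0.12, with 6 positive and 4 negative, against 0.00 for all genes, which describes these genes and was not tested as a list. Fewer cells of a type and less RNA per cell cannot be told apart in such bulk RNA.

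**Figure D1:**
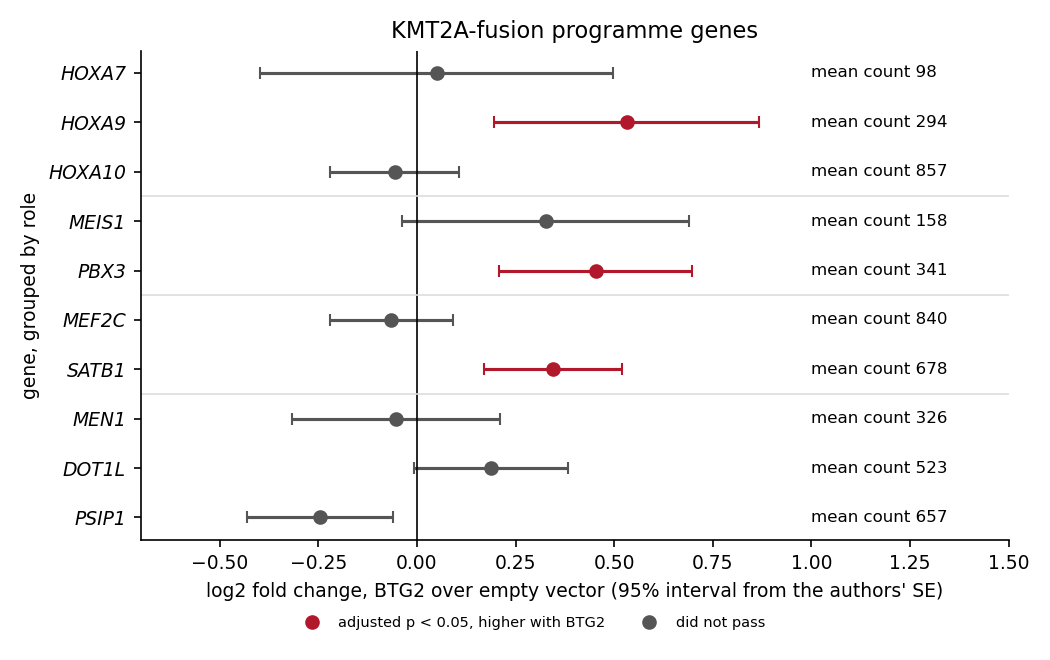
Log2 fold change of each programme gene (x axis, BTG2 over empty vector), with bars for the 95% interval computed from the authors' SE; rows are grouped as HOXA genes, TALE cofactors, MEF2C and SATB1, and fusion cofactors, with mean normalized counts at the right. HOXA9, PBX3 and SATB1 (red) passed the test, and the interval of PSIP1 lies below 0 although its adjusted p of 0.0917 missed the threshold.

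HOXA9 (ENSG00000078399.19), the homeodomain factor most closely tied to self-renewal in this leukaemia, lies on chromosome 7 from 27162435 to 27175180, minus strand, in GENCODE release 29 on hg38. At a mean count of 294 its log2 fold change was 0.53 (SE 0.17, 95% interval 0.20 to 0.87, adjusted p = 0.0286) in the authors' deposited table. That was the largest point estimate of the 10 genes but the least precise of the 3 calls. The authors' SE of HOXA9 exceeded that of 96.7% of the 1088 genes whose mean count was within 1.2-fold of its own, whose median SE was 0.14. HOXA10 (ENSG00000253293.6; chromosome 7, 27170591 to 27180261), a related homeodomain gene of the cluster, had a mean count of 857 and a log2 fold change of -0.06 (SE 0.08, interval -0.22 to 0.11, adjusted p = 0.862) in the authors' deposited table. With that SE a change of about 0.24 would have been called, and its interval ends below the lower bound for HOXA9. HOXA7 (ENSG00000122592.8; chromosome 7, 27153716 to 27157936) had a mean count of 98.1 and a log2 fold change of 0.05 (SE 0.23, interval -0.40 to 0.50, adjusted p = 0.970) in the authors' deposited table. A change in HOXA7 would have needed to reach about 0.66 to be called, more than the fold change seen for HOXA9. The log2 fold change of HOXA9 was 0.59 above that of HOXA10, a difference that was not tested, since the errors of both come from the same libraries.

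HOXA9 and HOXA10 overlap as annotated genes on the same strand but share 0 exon bases in GENCODE release 29. Shared exon bases were counted over all annotated transcripts of each gene, and which of those transcripts these cells used is unknown. Each shares exon bases with a gene that spans both, AC004080.3 (397 bases with HOXA9 and 368 with HOXA10), which had no row of its own. HOXA10-AS, a non-coding RNA on the opposite strand, shares 422 exon bases with HOXA9 and 608 with HOXA10. It had a log2 fold change of 1.22 (adjusted p = 0.170, SE 0.54) at a mean count of 23.1 in the authors' deposited table. The sources used here do not say whether counting used strand, so reads of HOXA10-AS and of these genes may not be separated. HOXA-AS3, also on the opposite strand, covers 62.5% of the exon bases of HOXA7 and had no row.

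Across the HOXA cluster the other rows did not pass the test. Of 9 further HOXA genes and non-coding RNAs with a row 0 were called by the authors' adjusted p. An unadjusted p under 0.05 was found for 2 of them, HOXA10-AS and HOXA11, and for 2036 of all 11597 genes. With 8.11% of all genes called and a median mean count of 58.0 in these 9 rows, the count of 0 is near the background. HOXA11, on the far side of HOXA10 from HOXA9, had a log2 fold change of 0.39 (adjusted p = 0.132, SE 0.16) at a mean count of 209 in the authors' deposited table. HOXA5 stood at 0.49 (SE 0.31), HOXA3 at 0.26 (SE 0.37) and HOXA13 at -0.17 (SE 0.14) in the authors' deposited table. Along the posterior end of the cluster HOXA9 alone was called. The values of HOXA10 and HOXA13 were below 0, with intervals that include 0. Beyond the cluster HOXC4 (0.48, SE 0.26), HOXC6 (0.42, SE 0.39), HOXC10 (0.45, SE 0.44) and HOXC8 (-0.20, SE 0.64) did not pass in the authors' deposited table. In all, 16 of 34 listed HOX cluster genes had a row, and 12 of these had a positive value, with a median of 0.32 and a median SE of 0.34. Without the programme genes 10 of 13 were positive, with a median SE of 0.39. Over all 11597 genes 5805 were positive, and the lean of the HOX list was not tested.

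**Figure D2:**
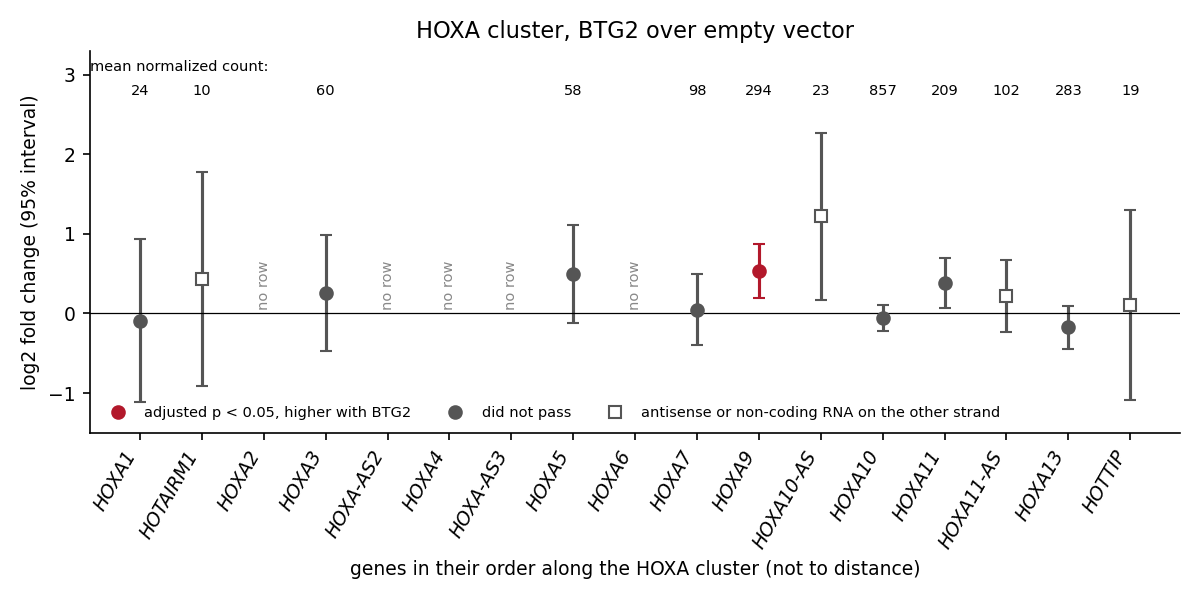
Log2 fold change with its 95% interval (y axis) for the genes of the HOXA cluster in their genomic order (x axis, not to distance), with mean normalized counts above; squares are RNAs of the opposite strand and grey labels mark genes with no row in the table. HOXA9 (0.53) is the one called gene, and its coding neighbours HOXA7 (0.05) and HOXA10 (-0.06) lie near 0.

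The TALE homeodomain cofactors PBX3 and MEIS1 both had positive values, of which that of PBX3 passed. PBX3 (ENSG00000167081.18; chromosome 9, 125747345 to 125967377, plus strand), which stabilises HOXA9 on DNA, rose, with a log2 fold change of 0.45 (SE 0.12, interval 0.21 to 0.70, adjusted p = 0.00568) at a mean count of 341 in the authors' deposited table. MEIS1 (ENSG00000143995.20; chromosome 2, 66433452 to 66573869, plus strand), the cofactor that with HOXA9 suffices to transform myeloid progenitors in mice, had a log2 fold change of 0.33 (SE 0.19, interval -0.04 to 0.69, adjusted p = 0.371) at a mean count of 158 in the authors' deposited table. The interval of MEIS1 includes both 0 and the value of PBX3, and a change of about 0.53 would have been needed for a call. Among their paralogues MEIS2 stood at 0.35 (adjusted p = 0.266, SE 0.17) and PBX2 at 0.10 (adjusted p = 0.872, SE 0.15) in the authors' deposited table. Neither these nor TGIF1, TGIF2 and PKNOX1 passed. Of 13 genes with a row in the list of TALE, MEF2 and SATB genes 2 were called, PBX3 and SATB1, and the median was 0.18. That share of 15.4% is near the 13.6% of genes with a mean count of 151 or more (8.11% of all). Of its 9 genes outside the programme 0 were called by the authors' adjusted p. An unadjusted p under 0.05 was found for 2 of them, MEIS2 above and MEF2A below 0, and for 2036 of all 11597 genes.

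SATB1 had the smallest p of the 10 genes. This chromatin organiser (ENSG00000182568.18; chromosome 3, 18345387 to 18445588, minus strand) rose, with a log2 fold change of 0.35 (SE 0.09, interval 0.17 to 0.52, adjusted p = 0.00262) at a mean count of 678 in the authors' deposited table. TBC1D5, which shares 211 exon bases with SATB1 on the same strand, stood at 0.26 (adjusted p = 0.337, SE 0.14) in the authors' deposited table. MEF2C (ENSG00000081189.17; chromosome 5, 88717117 to 88904257, minus strand), a MADS-box factor highly expressed in KMT2A-rearranged leukaemia, had a log2 fold change of -0.06 (SE 0.08, interval -0.22 to 0.09, adjusted p = 0.810) at a mean count of 840 in the authors' deposited table. The interval of MEF2C leaves out the point estimates of HOXA9, PBX3 and SATB1. Of the MEF2 paralogues MEF2D had the highest mean count, 1736, and a log2 fold change of 0.01 (SE 0.06) in the authors' deposited table. MEF2A stood at -0.57 (adjusted p = 0.146, SE 0.24) in the authors' deposited table, so the value of this paralogue was below 0 while its error was wide.

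The 3 cofactors of the fusion had values on both sides of 0. PSIP1 (ENSG00000164985.15; chromosome 9, 15464066 to 15511019, minus strand), whose product LEDGF tethers the menin-fusion complex to transcribed chromatin, had a log2 fold change of -0.25 (SE 0.09, interval -0.43 to -0.06) at a mean count of 657 in the authors' deposited table. Its unadjusted p was 0.00929 and its adjusted p 0.0917 in the authors' deposited table, so it would be called at a limit of 0.1 but not at 0.05. DOT1L (ENSG00000104885.19; chromosome 19, 2164149 to 2232578, plus strand) had a log2 fold change of 0.19 (SE 0.10, interval -0.01 to 0.38, adjusted p = 0.313) at a mean count of 523 in the authors' deposited table. MEN1 (ENSG00000133895.18; chromosome 11, 64803510 to 64811294, minus strand), the target of menin inhibitors, had a log2 fold change of -0.05 (SE 0.13, interval -0.32 to 0.21, adjusted p = 0.933) at a mean count of 326 in the authors' deposited table. Intervals of this width exclude a doubling or a halving of any of the 3.

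**Figure D3:**
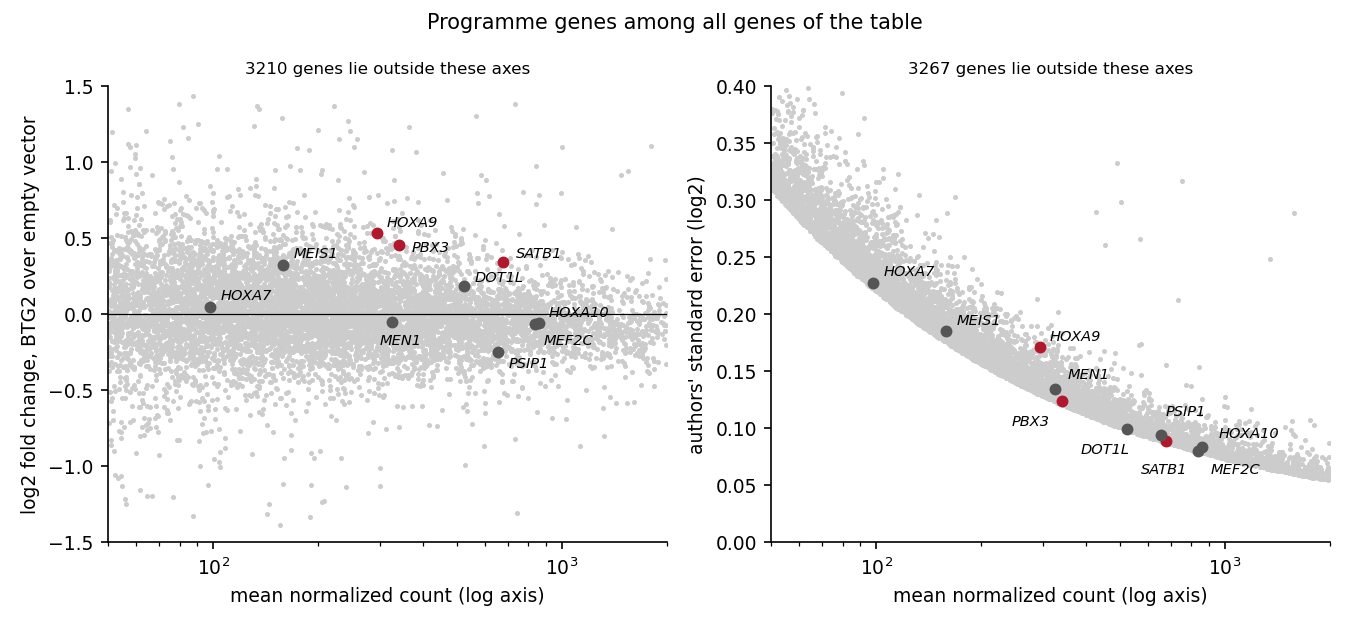
Log2 fold change (left) and authors' standard error (right) against mean normalized count (log axis), with all genes in grey and the 10 programme genes labelled, red where called. The standard errors of 9 genes follow the grey band, and HOXA9 lies above most genes of like count.

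The fusion's own machinery, a list of 40 genes of which 36 had a row, stayed mostly below the threshold. Besides the 3 cofactors, 1 of 33 was called, MLLT6 (AF17), a fusion partner gene, which rose by 0.42 (adjusted p = 0.0303, SE 0.13) in the authors' deposited table. KMT2A stood at -0.14 (SE 0.19) and MLLT3 at 0.12 (SE 0.25) in the authors' deposited table. Reads of the fusion transcript and of the intact genes are not separated in those values. The fusion partner MLLT10 (0.34, SE 0.15) and HCFC1 (0.28, SE 0.13) did not pass in the authors' deposited table. The PAF complex subunit CDC73 (-0.35, SE 0.14) and JUND (-0.24, SE 0.11), a menin-binding AP-1 factor, did not pass either in the authors' deposited table. The list's median was -0.06, with 16 positive and 20 negative values, and its median mean count was 285. Its called share of 2.78% was below the 8.11% of all genes. That share was also below the 13.6% of genes with a mean count of 151 or more, and neither difference was tested.

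Genes widely described as targets or effectors of the fusion moved both ways. Of 28 with a row, PBX3, SATB1 and MEF2C among them, 4 were called higher and 3 lower, with a median of -0.01, or 6 higher and 2 lower after recentring. That called share of 25% stands beside 8.11% of all genes and 13.6% of those with a mean count of 151 or more. The list's median mean count was 685. Without the programme genes in the list 5 of 24 were called (20.8%), 2 higher and 3 lower. RUNX1 rose by 0.42 (adjusted p = 0.00156, SE 0.10) and FLT3, the receptor kinase mutated in this line, by 0.23 (adjusted p = 0.0113, SE 0.07) in the authors' deposited table. MYB, which maintains leukaemic self-renewal, fell by a log2 fold change of 0.27 (adjusted p = 0.000826, SE 0.06) in the authors' deposited table. The granulocytic factor CEBPA stood at -0.26 (adjusted p = 2.02e-06, SE 0.05) and MYC at -0.13 (adjusted p = 0.0441, SE 0.05) in the authors' deposited table. MYB and MYC, at mean counts of 2270 and 5026, were measured more precisely than the 10 programme genes. CDK6 (0.22, SE 0.08, adjusted p = 0.0860) and BCL2 (-0.28, SE 0.12, adjusted p = 0.158) did not pass in the authors' deposited table.

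**Figure D4:**
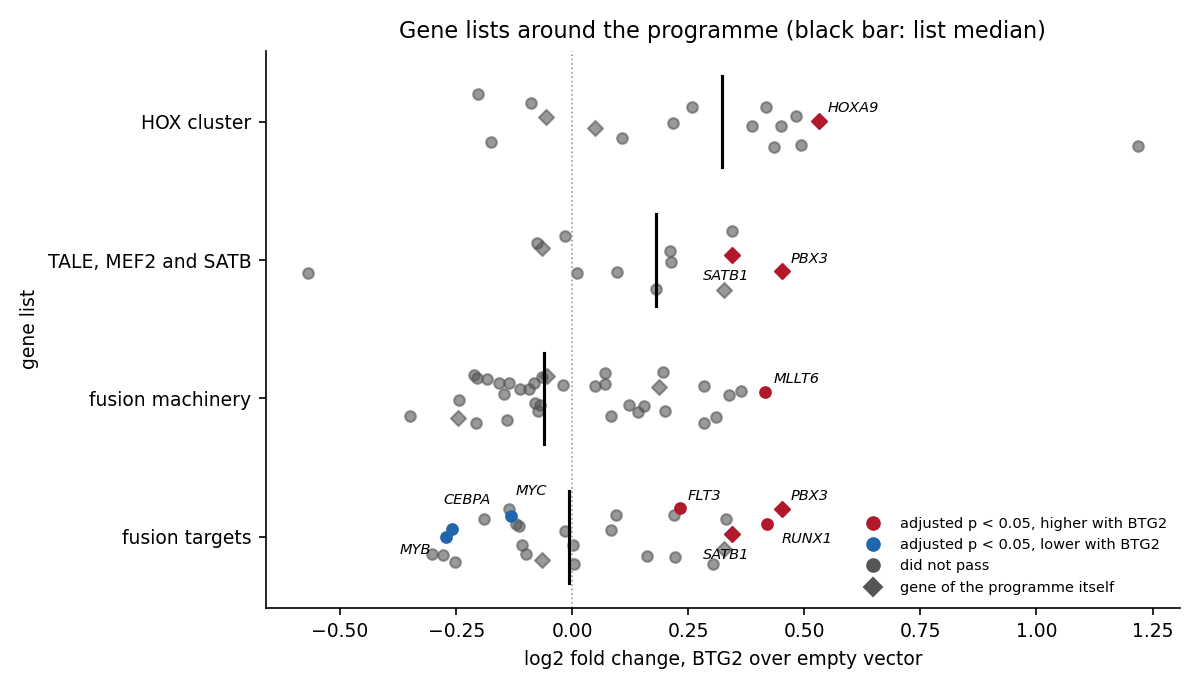
Log2 fold changes (x axis) of the genes with a row in each of 4 lists (y axis, scattered vertically for legibility), with called genes coloured and named, programme genes as diamonds and a black bar at each list's median. Called targets lie on both sides of 0, from MYB (-0.27) to PBX3 (0.45), whereas the machinery list has 1 called gene.

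Since the study asked about mRNA stability, 3′ UTR features of the 10 transcripts are given as a description, with no test. Each was read from the longest complete coding transcript in GENCODE release 29, and which isoforms these cells used is unknown. Motifs were counted on the sense strand, each on its own, with overlapping matches included. The 3′ UTRs ran from 810 bases (MEN1) to 5487 (MEF2C), with a median of 1454 against 1275 over 10484 coding genes. All 10 held the AU-rich core ATTTA, as did 72.0% of all, with 14 copies each in SATB1 and MEF2C. The median for 3′ UTRs within 1.2-fold of their lengths was 8 for SATB1 and 12 for MEF2C. Per kilobase of 3′ UTR the most copies of the 10, 4.13, were in PSIP1, which had the lowest fold change (-0.25). SATB1 and HOXA9, which rose, held 3.70 and 3.42, and MEF2C, with a value near 0, held 2.55. PBX3, which also rose, was nearer to MEF2C than to SATB1 in this density. Any link of these copies to the fold changes was not tested.

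Sites with the letters TGTANATA, which Pumilio proteins read, are shown for the genes that rose and for HOXA10 and MEF2C, since Pumilio proteins also recruit CCR4-NOT. Each line gives up to 30 bases of the sense strand, with the match in capitals and its first base counted from the start of the 3′ UTR, and the hg38 position of the line's bases.
HOXA9 at base 287 of 1168, chr7:27163298-27163327, minus strand: gtgtgttagctTGTATATAtatttttaaaa
HOXA9 at base 788 of 1168, chr7:27162797-27162826, minus strand: gtcttgtctatTGTATATAtaatctatatg
PBX3 at base 788 of 1454, chr9:125966700-125966729, plus strand: ctctggagtgtTGTATATAgtgtagcaaaa
PBX3 at base 1113 of 1454, chr9:125967025-125967054, plus strand: ggtaaaactgtTGTAAATActgagaaacat
SATB1 at base 3085 of 3783, chr3:18346067-18346096, minus strand: gtaacaaagtcTGTACATAttatgtataaa
SATB1 at base 3606 of 3783, chr3:18345546-18345575, minus strand: aatccttttaaTGTAAATActaaatacttg
HOXA10 at base 778 of 1308, chr7:27171103-27171132, minus strand: atccttctggcTGTAGATAaataatgtagt
MEF2C at base 332 of 5487, chr5:88722254-88722283, minus strand: cgttatttacaTGTAAATAgacaaaaggaa
MEF2C at base 1250 of 5487, chr5:88721336-88721365, minus strand: ctgacatccatTGTATATActagtttcttt
HOXA9, PBX3 and SATB1 each held 2 matches. Among 3′ UTRs within 1.2-fold of their lengths, 6.58% held 2 or more for HOXA9, 7.32% for PBX3 and 20.9% for SATB1. MEF2C also held 2, where the share was 34.5%, and HOXA10, MEIS1 and MEN1 held 1 each. HOXA7, DOT1L and PSIP1 had no match in these windows. At least 1 match was present in 7 of 10, against 29.4% of all 10484 genes, whatever their 3′ UTR length. Among 3′ UTRs within 1.2-fold of each gene's length, the share with a match ran from 19.9% (MEN1) to 62.8% (MEF2C). A match is not evidence of binding.

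The hairpin of miR-196b lies inside an exon of HOXA9 on the same strand when all annotated transcripts of that gene are counted. On the minus strand the hairpin lies upstream of the HOXA9 promoter shown (chr7:27165488-27165787), and so outside a transcript from that start site. The microRNA miR-196 is known to repress HOX genes. The mature 5p strand, at chr7:27169528-27169549 in RefSeq on GRCh38.p14, is shown with its seed (bases 2 to 8) in capitals, above the matches to that seed (ACTACCT, sense strand only) in programme 3′ UTRs.
miR-196b-5p: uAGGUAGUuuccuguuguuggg
HOXA7 at base 302 of 1193, chr7:27154590-27154618, minus strand: gcgtccaaaatACTACCTagcacaggcct
HOXA7 at base 339 of 1193, chr7:27154553-27154581, minus strand: ggcacccccaaACTACCTatgtatccagc
HOXA7 at base 454 of 1193, chr7:27154438-27154466, minus strand: tgaatctcactACTACCTactcccctaaa
HOXA7 at base 472 of 1193, chr7:27154420-27154448, minus strand: actcccctaaaACTACCTattttgtgctg
HOXA9 at base 342 of 1168, chr7:27163244-27163272, minus strand: aaaggaaagaaACTACCTttttataatgc
HOXA9 at base 904 of 1168, chr7:27162682-27162710, minus strand: tgcagaaggttACTACCTagggtttatgc
PBX3 at base 912 of 1454, chr9:125966824-125966852, plus strand: agtgctcacttACTACCTctgaacaatac
HOXA7 held 4 matches, a number that 0 of 1222 3′ UTRs of like length reached. HOXA9 held 2, a number reached by 0.165% of 1215, and PBX3 held 1, where 6.18% held any. No match was found in the other 7, and 7.81% of all 10484 genes had one. MIR196B had no row in the authors' deposited table, which was made from poly(A) RNA, and of these 3 genes HOXA9 and PBX3 rose while HOXA7 (0.05) did not pass.

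The mean count of the authors' deposited table was divided by the GENCODE length of that transcript. Per kilobase, HOXA10 then had the highest value of the 10, 337, followed by PSIP1 (194), HOXA9 (143), PBX3 (117), MEF2C (111) and MEN1 (103). SATB1 (86.8), DOT1L (70.4), HOXA7 (48.6) and MEIS1 (31.0) were lower on this per-kilobase scale, against a median of 47.1 over 10484 genes. The levels carry no error between libraries, so which neighbours in this order differ cannot be told. The series text speaks of long reads, whose counts need not scale with transcript length, whereas the labels' protocols describe short fragments.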

How the data were processed

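Poly(A) RNA of MOLM13 cells was compared between 2 libraries with BTG2 and 2 with empty vector, grouped by sample title. The submitters' processing notes name minimap2 and hg38. Not given in the sources used here are the program, normalization, annotation and filter behind the values, and strand use in counting. The labels do not say whether replicates were separate cultures, so p-values may measure technical spread.

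One table was deposited by the authors for this comparison. Its mean count per gene is a signal that the authors pooled over libraries, per the file headers. The deposited fold changes and their errors are log2 values. The deposited test statistic is a score equal to the fold change over its error within 2.72e-07. The authors' adjusted p-value matches a Benjamini-Hochberg adjustment of the deposited p-value within 1.48e-06. Library depth is unknown, because counts per library were not analysed here.

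A gene was called where the authors' adjusted p was under 0.05 over 11597 genes, with no test added. Intervals (95%) are the log2 fold change with its normal error. The smallest change that would be called is the smallest called absolute statistic, 2.876, times the SE. Named genes are BTG2, the 10 programme genes, up to 8 called genes per list, paralogues and HOXA neighbours; unlisted overlapping genes, and uncalled list genes given for contrast, were chosen after their values were seen. Some listed genes are not reported here. Members and lists were chosen with earlier results of these data known. Of the listed genes 11398 (98.3%) matched GENCODE release 29. Alternatives were limits of 0.01 and 0.1, minimum log2 changes of 0.5 and 1, a test against 0.2, recentring, abundant genes alone and a rescaled statistic. The two-sided p, the adjustment and the test against 0.2 were tried on simulated data that took the deposited errors as right. Other steps were not simulated. Python 3.11.15, numpy 2.4.6, pandas 2.3.3 and scipy 1.17.1 were used.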

Additional observations from a re-analysis of the deposited data

How the results depend on the processing

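Over the 8 alternatives HOXA9, PBX3 and SATB1 together lost 11 calls, and PSIP1 gained 1, at a limit of 0.1. Recentring is the one alternative that moves a fold change, by the same amount for all genes. HOXA9, PBX3 and SATB1 were all called after recentring (shift -0.03) and among abundant genes alone. HOXA7 has no value among abundant genes alone, since its mean count is under the median. With the statistic of the authors' deposited table divided by its scaled median absolute deviation of 1.25, SATB1 was called (Benjamini-Hochberg adjusted p = 0.0473), whereas PBX3 (0.0744) and HOXA9 (0.193) missed. That setting called 1 programme gene, 1 gene of the TALE, MEF2 and SATB list, 4 fusion targets, 0 of the HOX list and 0 of the machinery list. At a limit of 0.01 HOXA9 was lost, leaving 2 programme genes, 0 HOX genes and 0 machinery genes, and at 0.1 the machinery list had 2 calls. A minimum log2 change of 0.5 left HOXA9 as 1 programme gene called, with 0 called in the TALE, MEF2 and SATB, machinery and target lists. A minimum of 1, or a test against 0.2, left 0 called among the 10 and in each of the 4 lists. Over all genes the calls numbered 940, with 622 at 0.01, 388 and 120 with minimum changes of 0.5 and 1, 220 against 0.2 and 471 with the rescaled statistic. No paired analysis was possible because the table holds no values per library, and for the same reason replicates were not left out in turn and the planned count tests were not run. HOXA7 and MEIS1 needed the largest changes for a call, 0.66 and 0.53, at mean counts of 98.1 and 158, the lowest of the 10.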
